A study of Homo sapiens with 6 samples.

Results

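The SLCO genes encode the organic anion transporting polypeptides (OATPs), and 8 of them were followed here in HepG2, a hepatoblastoma-derived human cell line with many features of hepatocytes. The members were taken by name from the 23368 distinct genes of the deposited table: SLCO1A2, SLCO1B1, SLCO1B3, SLCO2A1, SLCO2B1, SLCO3A1, SLCO4A1 and SLCO4C1. The family itself was chosen by its difference between the study's groups in earlier results of these data, so differences of the members between groups are given as a description, without p-values, and calls of members are only counted beside the share called among all genes. The control group, EV, held 3 libraries (a, b and c) from HepG2 cells transduced with a lentiviral pLKO vector that carries a non-targeting short hairpin RNA. The shCHROME group held 3 libraries (a, b and c) from HepG2 cells that received, in the same vector, a hairpin meant for all variants of CHROME, a long noncoding RNA. Both groups were HepG2 transduced with virus packaged in HEK293T, an embryonic kidney line, and the labels call both hairpins stable. How many clones or cultures each group came from, and the time after transduction, are not given in the sources used here. The comparison addresses which transcripts differ between cells with this hairpin and cells with the control hairpin. CHROME itself was not analysed here. All 3 shCHROME libraries carried the same hairpin, so loss of CHROME and other effects of that hairpin cannot be told apart.

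OATPs are membrane proteins that take up amphipathic organic anions into cells without sodium: bile salts, bilirubin conjugates, steroid sulfates, thyroid hormones, prostaglandins and many drugs such as statins. In the liver, OATP1B1 (SLCO1B1), OATP1B3 (SLCO1B3) and OATP2B1 (SLCO2B1) sit in the hepatocyte membrane that faces the blood, and inherited loss of both OATP1B proteins causes Rotor syndrome, in which conjugated bilirubin stays in the blood. The other members act mostly elsewhere: OATP1A2 in brain endothelium and bile duct cells, OATP2A1 as the prostaglandin transporter, OATP4C1 in kidney tubules, and OATP3A1 and OATP4A1 in many tissues.

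Recovered read totals ran from 29188213 to 35429420 per library. All 9 hepatocyte markers checked (ALB, APOA1, APOB, SERPINA1, TTR, TF, FGB, AFP and HNF4A) were detected. Their summed level was 1413000 to 1534000 normalised read counts in EV and 1132000 to 1328000 in shCHROME, and 6 of the 9 fell (limma adjusted p under 0.05). Of 16 markers of endothelial cells, macrophages, stellate cells and cholangiocytes, 11 had enough reads for the test. KRT19 alone rose and PDGFRB alone fell among them, TEK was at 0 in every library, and the summed level was 10170 to 11540 in EV and 10620 to 11080 in shCHROME. The part of these shifts in the SLCO values was not tested. In bulk RNA, fewer cells of a type and less RNA per cell cannot be told apart. Nor can transcripts of HepG2 itself be told from those of other cells. The highest EV means among the 16 markers were 4713 for SOX9, 2722 for EPCAM, 1298 for ACTA2 and 1025 for VWF.

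SLCO1B3 was the member with the largest difference between groups, and SLCO2B1, the member with the most reads, differed in the opposite direction. SLCO1B1, near SLCO1B3 on chromosome 12, was also higher in shCHROME but from very few reads. SLCO3A1 and SLCO4C1 were somewhat higher in each shCHROME library, whereas SLCO1A2, SLCO4A1 and SLCO2A1 overlapped between groups. Of the 8 members, 6 passed the filter on low values that limma, the test fitted across all genes, requires; SLCO1B1 and SLCO2A1 did not. Among the 6, 1 was called higher and 1 lower at an adjusted p under 0.05, where 3.64% of all 14598 tested genes were called higher, 6.87% lower and 10.5% in either direction. The groups did not overlap in 4 of the 6 tested members, against 28% of all tested genes. Because the family was chosen by this contrast, nothing is read from these counts. The median log2 fold change of the 6 was 0.20, beside 0.01 over all tested genes.

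**Figure D1:**
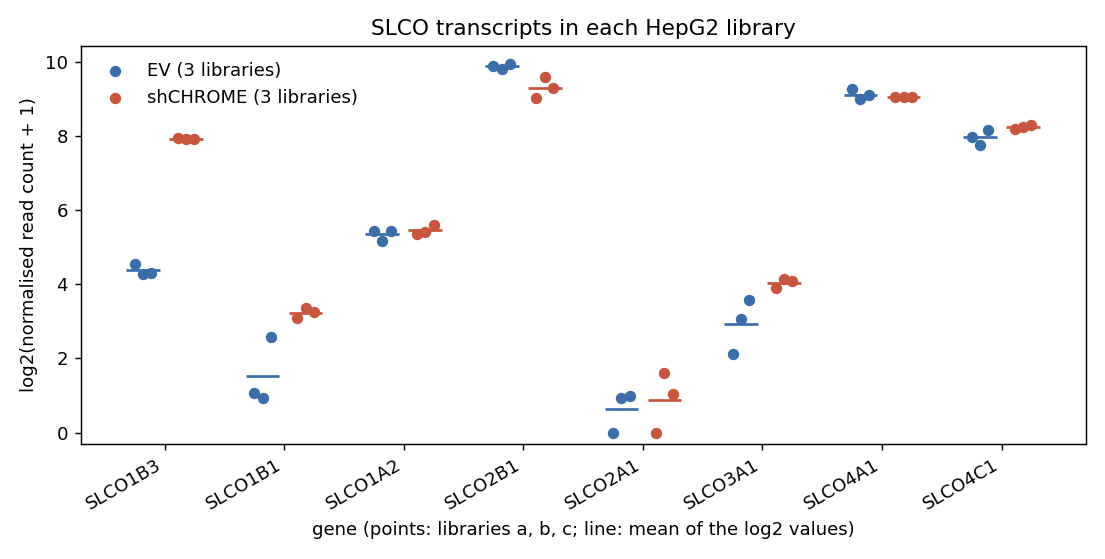
Level of each SLCO transcript as log2(normalised read count + 1), by gene; each point is a library (blue EV, red shCHROME, 3 each) and each line the mean of the log2 values. The red points lie above all blue ones for SLCO1B3, SLCO1B1, SLCO3A1 and SLCO4C1, below them for SLCO2B1, and among them for SLCO1A2, SLCO2A1 and SLCO4A1.

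SLCO1B3 (ENSG00000111700, chromosome 12) had 22.3, 18.28 and 18.92 normalised read counts in EV replicates a, b and c. In shCHROME replicates a, b and c it had 247.5, 239.9 and 243.4. The lowest shCHROME library was thus far above the highest EV library, and replicates lay close together. These values came from 20, 20 and 19 reads in EV and from 265, 232 and 229 reads in shCHROME. The group means were 19.83 ± 2.16 and 243.6 ± 3.83 (SD, n = 3 each), a log2 fold change of 3.56 with a standard error of 0.18. Log2 fold changes are from the limma fit of log2(value + 1) unless another fit is named, and for genes with few reads they depend on that pseudocount: SLCO3A1 stood at 1.12 with 1 and at 1.25 with 0.1. Over 15 other ways of fitting the table the value stayed between 3.51 and 3.64.

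SLCO1B1 (ENSG00000134538, chromosome 12), the closest relative of SLCO1B3 among the members, had 1.115, 0.9141 and 4.978 normalised read counts in EV and 7.472, 9.305 and 8.504 in shCHROME. All shCHROME libraries were higher than all EV libraries, but no library held more than 9 reads. The reads summed to 7 in EV (95% exact Poisson interval 2.81 to 14.4) and 25 in shCHROME (16.2 to 36.9), intervals that cover counting error only. At this depth the gene stood below the filter; with no filter beyond 1 read its log2 fold change was 1.70. The third gene of this type, SLCO1B7, which the table describes as non-functional, had 0, 0 and 3 reads in EV and 2, 4 and 6 in shCHROME, so its groups overlapped.

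Reads can be shared between near-identical genes, so the transcripts were compared in windows of 50 bases, after the 50-cycle paired-end run the labels name. The coding sequences of SLCO1B1 and SLCO1B3 were identical at 1815 of 2107 aligned positions (86.1%), more than any other pair of members; SLCO1A2 followed with 61% to SLCO1B1 and 60.5% to SLCO1B3. No window of the SLCO1B1 transcript occurred in SLCO1B3, but 202 of its 2180 windows (9.27%) occurred in AC022335.1, a GENCODE gene that overlaps it on the same strand. Of the 2756 windows of SLCO1B3, 44 (1.6%) occurred in SLCO1B7 and 1881 (68.3%) in AC011604.2, a longer GENCODE gene that overlaps both on the same strand. AC011604.2 and AC022335.1 were not analysed here. The sources used here do not give how reads of such overlapping genes were assigned. The absolute levels of SLCO1B3 and SLCO1B1 are therefore uncertain in both groups. Which of the overlapping genes the reads behind their differences came from is uncertain as well. Values per gene also do not tell the liver transcript of SLCO1B3 from the form that starts further inside the gene and is known from tumour cells.

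The sequences upstream of SLCO1B3 and SLCO1B1 are shown because both genes were higher in shCHROME, SLCO1B1 from few reads, and lie in 1 cluster. They are the 250 bases before the annotated RefSeq start (GRCh38.p14, both on the + strand), chr12:20810455-20810704 for SLCO1B3 and chr12:21130944-21131193 for SLCO1B1. Values per gene do not tell whether the SLCO1B3 reads came from the start used here. Capitals mark each match to the letters GTTAAT on either strand.
SLCO1B3: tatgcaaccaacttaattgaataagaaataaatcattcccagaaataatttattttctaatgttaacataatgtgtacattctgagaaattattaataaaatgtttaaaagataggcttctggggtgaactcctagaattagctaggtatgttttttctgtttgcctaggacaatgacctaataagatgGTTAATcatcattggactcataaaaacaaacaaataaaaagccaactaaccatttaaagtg
SLCO1B1: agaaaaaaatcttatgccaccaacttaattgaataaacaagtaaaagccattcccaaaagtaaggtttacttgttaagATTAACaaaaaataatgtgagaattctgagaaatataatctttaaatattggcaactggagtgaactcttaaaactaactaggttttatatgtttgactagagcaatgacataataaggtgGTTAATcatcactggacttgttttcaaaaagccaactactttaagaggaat

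The windows were identical at 187 of 277 aligned positions (67.5%), where the other 32 pairs of member windows gave 35.5% to 57.6%. The longest run they share is accaacttaattgaataa, and the run tggttaatcatca, which holds the GTTAAT match, starts 63 bases before the start of SLCO1B3 and 53 before that of SLCO1B1. SLCO1B1 has a further match, on the opposite strand, 172 bases before its start. At least 1 match occurred in 6.23% of all 35116 promoter windows cut to the same 250 bases, and 2 or more in 0.421%. G and C made up 28.4% of the SLCO1B3 window and 29.2% of the SLCO1B1 window, against a median of 58% over all windows. The windows of SLCO2B1, SLCO3A1 and SLCO4C1 ran from 58.4% to 80.4%. GTTAAT is rich in A and T, so these shares do not tell how often windows of like composition hold it. SLCO1A2 had 1 match in 1 of its 2 annotated windows, and no window of SLCO2B1, SLCO3A1 or SLCO4C1 held one; SLCO4A1 and SLCO2A1 had no window in the table. AGGTCA, the core site of nuclear receptors such as FXR, on either strand, was found in SLCO1B3, 76 bases before the start, in 1 window of SLCO3A1, and in 12.1% of all windows. ACGTG, a core of the hypoxia response element, was found in neither SLCO1B gene (18.5% of all windows). These matches describe letters, not binding.

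SLCO1A2 (ENSG00000084453, chromosome 12), the last SLCO gene of the cluster, had 42.37, 34.74 and 42.82 normalised read counts in EV and 40.16, 41.36 and 47.83 in shCHROME. The groups overlapped, with a log2 fold change of 0.11 (SE 0.23). IAPP, the amylin gene, overlaps SLCO1A2 on the opposite strand, so without a stated strand setting their reads may be mixed; IAPP had a log2 fold change of 0.22 (limma adjusted p = 0.612). Within the cluster, then, values were higher in shCHROME at SLCO1B3 and, from few reads, at SLCO1B1, and overlapped at SLCO1B7 and SLCO1A2.

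On the other side of SLCO1B3 lies SLCO1C1, the thyroxine carrier of brain capillaries, with 3 reads in shCHROME replicate c and none elsewhere. Among 12 tested genes from PLEKHA5 to C2CD5 around the cluster, 1 was called higher and 1 lower, and the list had a median log2 fold change of 0.07. PDE3A, a phosphodiesterase gene next to SLCO1C1, rose 1.61-fold, from 43.46 ± 4.27 to 70.63 ± 7.4 normalised read counts (SD, n = 3 each, limma adjusted p = 0.0391). Its groups did not overlap, but the call was lost with any 1 library left out: without EV replicate a (adjusted p = 0.126), b (0.0643) or c (0.0915), and without shCHROME replicate a (0.067), b (0.0559) or c (0.164). DESeq2 did not call it either (adjusted p = 0.0652). Nor did limma with the replicate letter as a block (adjusted p = 0.0734) or with no filter beyond 1 read (0.0878). GOLT1B, a Golgi transport gene, fell 1.16-fold (adjusted p = 0.0366), a call lost without EV replicate a (0.0751), b (0.0964) or c (0.125) and without shCHROME replicate b (0.114) or c (0.122). Scaling to library totals removed the GOLT1B call as well (limma adjusted p = 0.0874), as did the replicate letter as a block (0.0748). ABCC9, a subunit gene of potassium channels, and PLEKHA5 did not pass the test, with log2 fold changes of 0.13 and 0.18. The largest log2 fold change of this list in either direction was -1.31 (SE 0.42), for C12orf39, the spexin gene SPX, which did not pass the test (adjusted p = 0.0552) and is named here after its value was seen.

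**Figure D2:**
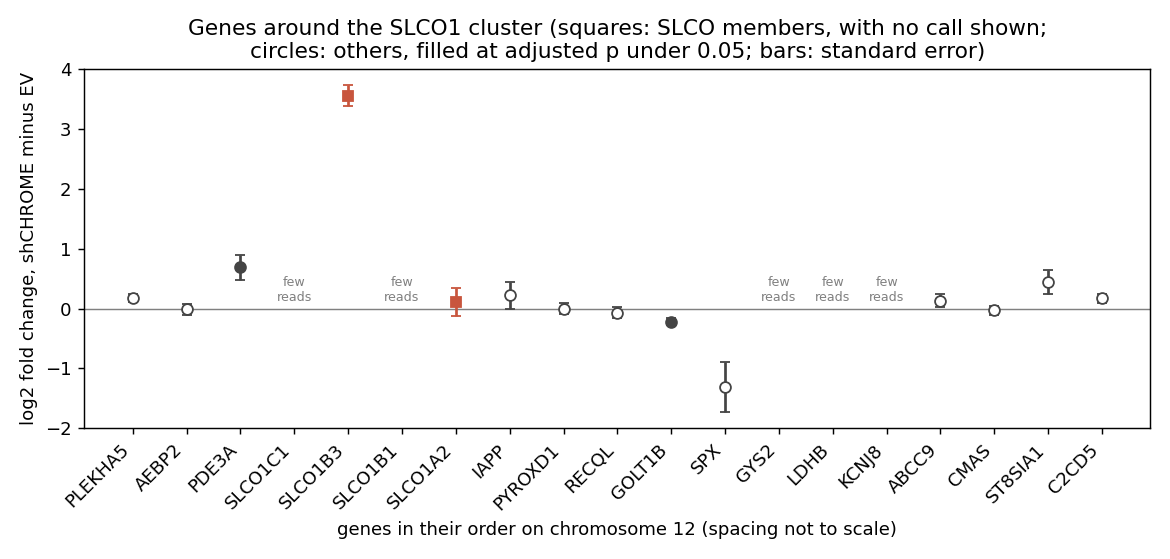
Log2 fold change (shCHROME minus EV, 3 libraries each) of genes in their RefSeq order around the SLCO1 cluster on chromosome 12; bars are standard errors, squares are SLCO members, shown without a call, filled circles are other genes with an adjusted p under 0.05, and genes with too few reads carry no symbol. SLCO1B3 stands at 3.56, SLCO1A2 at 0.11, and PDE3A, a filled circle, at 0.69. SLCO1B7, another SLCO gene of the cluster, is not among the genes shown.

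SLCO2B1 (ENSG00000137491, chromosome 11), the hepatic and intestinal carrier of steroid sulfates, had 945.5, 903.1 and 980.8 normalised read counts in EV. In shCHROME it had 524, 772.3 and 628.2. Every shCHROME library was below every EV library, and the shCHROME libraries differed among themselves more than the EV libraries did, with coefficients of variation of 19.4% and 4.12%. The means were 943.1 ± 38.9 and 641.5 ± 125 (SD, n = 3 each), a log2 fold change of -0.57 (SE 0.11). It was -0.44 without shCHROME replicate a, the lowest library, and -0.72 without replicate b, the highest of that group. Its reads summed to 2821 in EV and 1899 in shCHROME, more than those of any other member.

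SLCO2A1 (ENSG00000174640, chromosome 3), the prostaglandin transporter, had 0, 1 and 1 reads in EV and 0, 2 and 1 in shCHROME. A difference was not detectable at this depth: sums of 2 and 3 reads allow 0.242 to 7.22 and 0.619 to 8.77 (95% exact Poisson intervals). SLCO3A1 (ENSG00000176463, chromosome 15), a widely expressed carrier, had 3.345, 7.313 and 10.95 normalised read counts in EV and 14.01, 16.54 and 15.94 in shCHROME. The groups did not overlap, but the EV libraries held only 3, 8 and 11 reads, against 15, 16 and 15 in shCHROME. SLCO3A1 therefore passed the filter through the group in which it was higher. Its log2 fold change was 1.12 (SE 0.45), and 0.72 without EV replicate a, the lowest library.

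SLCO4A1 (ENSG00000101187, chromosome 20), a thyroid hormone carrier of many tissues, had 616.6, 510.1 and 548.6 normalised read counts in EV and 531.5, 534.5 and 536.8 in shCHROME. The shCHROME values fell inside the EV range, with means of 558.4 ± 53.9 and 534.3 ± 2.68 (SD, n = 3 each) and a log2 fold change of -0.06 (SE 0.09), or 0.01 without EV replicate a. Of its 2727 windows of 50 bases, 250 (9.17%) are shared with SLCO4A1-AS1 on the opposite strand, listed in the table as LOC100127888, and reads of these cannot be told apart without strand. The antisense gene had 83.62, 37.48 and 48.79 normalised read counts in EV and 22.42, 37.22 and 24.45 in shCHROME, and did not pass the test (log2 fold change -0.94, limma adjusted p = 0.0502).

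SLCO4C1 (ENSG00000173930, chromosome 5), best known as the digoxin and thyroid hormone carrier of kidney tubules, had 253.1, 214.8 and 287.8 normalised read counts in EV. It had 293.3, 304 and 315.7 in shCHROME. The lowest shCHROME library was just above the highest EV library, and the log2 fold change of 0.28 (SE 0.12) ran from 0.17 to 0.38 over the other ways of fitting. Of the SLCO genes outside the list, SLCO5A1 had at most 4 reads and SLCO6A1 at most 7 reads in any library.

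Levels of different genes were compared as normalised read counts per kilobase of the longest coding sequence. In EV the order was SLCO2B1 (425 to 461), SLCO4A1 (235 to 285), SLCO4C1 (98.9 to 132), SLCO1A2 (17.3 to 21.3), SLCO1B3 (8.68 to 10.6), SLCO3A1 (1.57 to 5.14), SLCO1B1 (0.441 to 2.4) and SLCO2A1 (0 to 0.516). The first 5 of these each stood clear of the next in the range of the 3 libraries, while SLCO3A1 overlapped SLCO1B1 and SLCO1B1 overlapped SLCO2A1. In shCHROME, SLCO1B3 stood at 114 to 118 per kilobase and moved from the fifth to the fourth place, below SLCO4C1 at 135 to 145. SLCO2B1 (246 to 363) and SLCO4A1 (245 to 248), clear of each other in EV, overlapped in shCHROME. These places depend on the length used. Per kilobase of merged exons, SLCO4A1 (126 to 152) came before SLCO2B1 (87.2 to 94.8) in EV, and SLCO1B3 (5.16 to 6.3) already stood before SLCO1A2 (3.02 to 3.72). On that scale SLCO1B3 reached 67.7 to 69.9 in shCHROME, above SLCO4C1 at 55 to 59.2, and overlapped SLCO2B1 at 50.6 to 74.6.

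As a share of the summed level of the 8 members per kilobase of coding sequence, SLCO1B3 made up 1.01% to 1.2% in the EV libraries and 12.7% to 15.2% in the shCHROME libraries. SLCO2B1 made up 50.5% to 53.8% in EV and 31.8% to 40.5% in shCHROME. The sum itself overlapped between groups, 789 to 885 in EV and 774 to 898 in shCHROME. SLCO4A1 made up 28.6% to 32.4% in EV and 27.5% to 31.7% in shCHROME. SLCO4C1 made up 12.5% to 15% in EV and 15.6% to 17.4% in shCHROME. Per kilobase of merged exons the sums did not overlap, at 263 to 302 in EV and 315 to 341 in shCHROME, so whether the family's total differed depends on the length used. The shares of SLCO1B3 (1.8% to 2.09% and 19.9% to 22.2%) and SLCO2B1 (30.3% to 33.2% and 16.1% to 21.9%) differed in the same directions on that scale. Those of SLCO4A1 and SLCO4C1 depended on the length used. By merged exons SLCO4A1 made up 45.6% to 50.4% in EV and 38.7% to 41.6% in shCHROME, without overlap. SLCO4C1 overlapped on that scale, at 15.3% to 18.2% in EV and 16.7% to 17.9% in shCHROME.

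**Figure D3:**
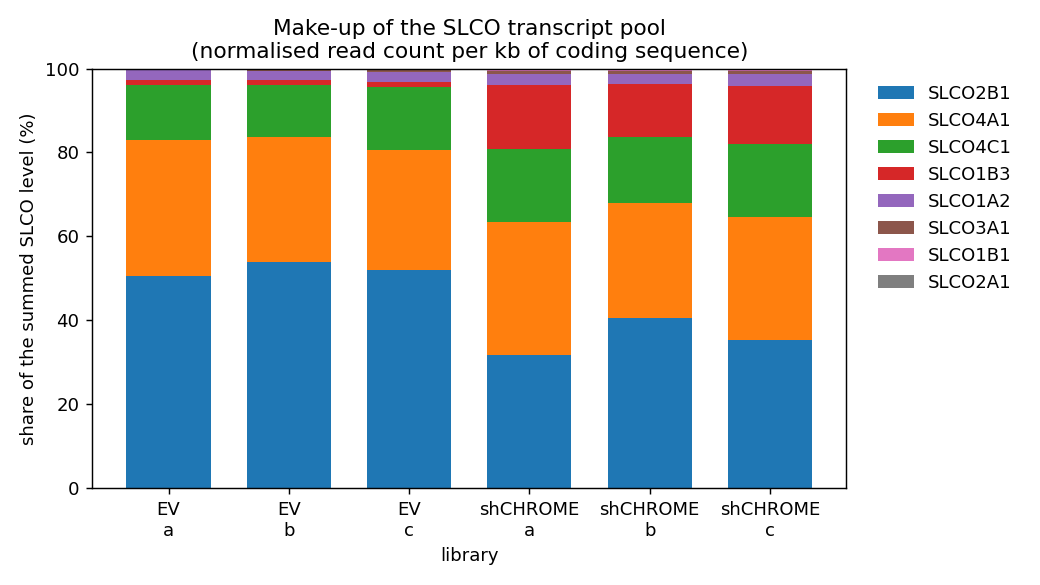
Share (%) of each SLCO member in the summed level of the 8 members, in normalised read counts per kilobase of coding sequence, by library (3 EV, 3 shCHROME). The SLCO1B3 segment is 1.01% to 1.2% in EV and 12.7% to 15.2% in shCHROME, and that of SLCO2B1 is smaller in shCHROME.

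The genes whose pattern over the 6 libraries was most like that of SLCO1B3 were sought among 12324 tested genes with a mean of at least 50. Likeness was the root mean square difference of log2 values after each gene was centred on its own mean. The 5 closest were EDNRB, an endothelin receptor (0.70), SEMA3A, an axon guidance factor (0.82), SETBP1 (0.96), DKK1, a secreted Wnt inhibitor (1.01), and LPHN2, an adhesion receptor (1.09). None of them lies on chromosome 12. EDNRB, the closest, had 3.345, 8.227 and 1.991 normalised read counts in EV and 129.8, 105.5 and 96.73 in shCHROME. With 3, 9 and 2 reads in EV, EDNRB passed the filter and the mean of 50 through the group in which it was higher. SETBP1, with an EV mean of 45.66, also reached the mean of 50 through shCHROME. By Pearson correlation over the same 6 libraries LPHN2 came first (r = 0.996), and only it was shared with the 5 named here. The measure rewards any gene that is higher in shCHROME, and the points share their libraries.

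The other genes of the pathway came from lists of carriers, enzymes and regulators. Among 26 transporters and conjugating enzymes that handle bile acids and organic anions in the liver, 24 were tested, with 9 lower, 3 higher and 12 without a call; 10.5% of all tested genes were called. The median log2 fold change of the list was -0.14. The count of 9 lower genes became 5 without shCHROME replicate c. Both chains of the steroid and bile acid exporter OST moved, in opposite directions. Its alpha chain gene SLC51A, listed as OSTalpha, rose 1.51-fold from 490.5 ± 70.7 to 738.2 ± 100 normalised read counts (SD, n = 3 each, limma adjusted p = 0.00239). The beta chain gene SLC51B, listed as OSTBETA, fell 1.4-fold from 461.3 ± 46 to 328.8 ± 14.4 (adjusted p = 0.0053). Neither pair of groups overlapped. SLC22A9, an organic anion carrier, rose 1.42-fold (adjusted p = 0.00114), and SULT2A1, which sulfates bile acids and steroids, fell 1.39-fold (adjusted p = 0.000893). The calls of these 4 genes held in each of the 15 other fits.

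Among 27 regulators of hepatic transporter genes, all tested, 3 were called higher, 2 lower and 22 not, with a median log2 fold change of -0.01. RXRA, the partner of many nuclear receptors, fell 1.34-fold, from 5660 ± 179 to 4243 ± 244 normalised read counts (SD, n = 3 each, limma adjusted p = 0.000158). NR5A2, the liver receptor homolog, had 2.23, 0 and 6.97 normalised read counts in EV and 13.08, 11.37 and 19.13 in shCHROME (adjusted p = 0.0269). With 2, 0 and 7 reads in EV and 14, 11 and 18 in shCHROME, it passed the filter through the group in which it was higher, so its call supports nothing here. DESeq2 gave it no adjusted p and a minimum of 1 CPM left it out, and 2 regulators were called higher in both of these. Its call was lost without EV replicate a (adjusted p = 0.053) or b (0.0941) and without shCHROME replicate a (0.0519), b (0.0664) or c (0.153). ONECUT1, a hepatocyte transcription factor, rose 1.48-fold (adjusted p = 0.0228), a call lost without EV replicate a (0.0926) or b (0.0732) and without shCHROME replicate b (0.0725) or c (0.136). NFE2L2, the oxidative stress factor NRF2, fell 1.18-fold (adjusted p = 0.0264), a call absent after scaling to library totals (0.0664), or with shCHROME replicate b (0.0997), EV replicate c (0.151) or EV replicate a (0.0879) left out. The groups overlapped for NR1H4, the gene of the bile acid receptor FXR, with a log2 fold change of -0.10 (SE 0.06).

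For the prostaglandins that SLCO2A1 carries, 12 of 25 listed genes of synthesis, receptors and breakdown were tested; limma called 2 of them lower, 0 higher and 10 neither, with a median log2 fold change of -0.11. PTGR1, a reductase that breaks down prostaglandins, fell 2-fold, from 706.9, 543 and 586.5 normalised read counts to 294.2, 292.6 and 327.4 (limma adjusted p = 8.24e-06). AKR1C3, a prostaglandin F synthase, fell 1.16-fold (adjusted p = 0.0173), a call absent after scaling to library totals (0.0507), or with EV replicate a (0.0566), b (0.0624) or c (0.0568) left out. PTGES3 and PTGES2, of prostaglandin E synthesis, had log2 fold changes of 0.16 and 0.08 and did not pass the test. PTGS2 and PTGER2 were at 0 in every library.

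**Figure D4:**
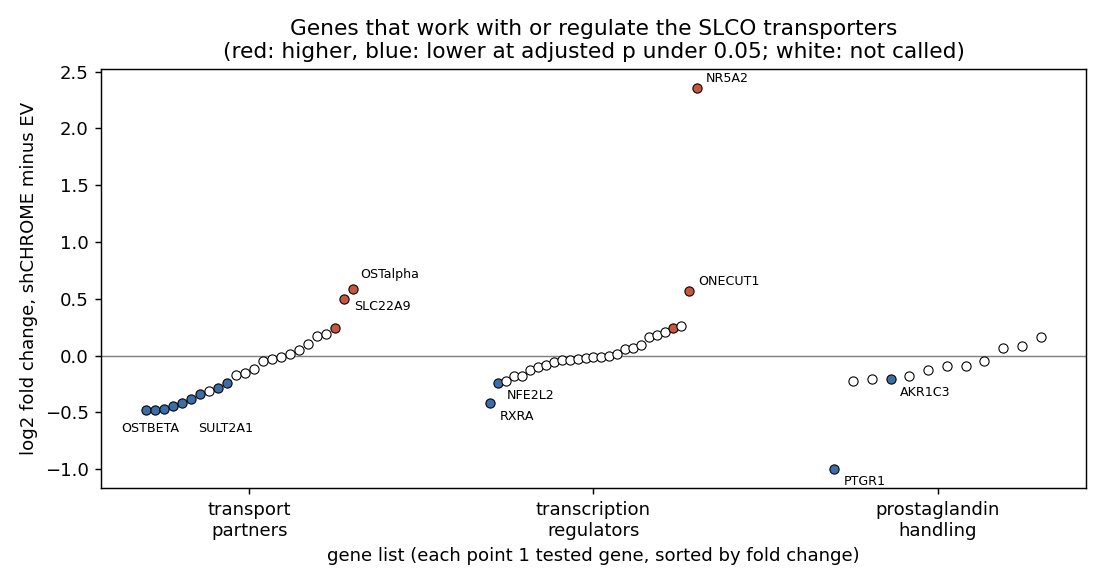
Log2 fold change (shCHROME minus EV, 3 libraries each) of the tested genes of 3 lists, each point a gene; red points were called higher and blue points lower at an adjusted p under 0.05. In the list of transport partners 9 points are blue and 3 red, among regulators 2 and 3, and among prostaglandin genes 2 and 0.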

How the data were processed

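Total RNA of 6 HepG2 libraries was made into Illumina TruSeq libraries and sequenced in pairs, per the labels' protocols. STAR 2.5, featureCounts 1.5.2, DESeq2 (given as version 3.4) and hg19 are named in the submitters' processing notes; the annotation and strand setting are not given in the sources used here. The authors deposited a never-negative signal, read counts divided by a size factor per library, with their own log2 fold change and p-value per gene. Repeated rows (1288 of 24656) were dropped. Every value was a whole multiple of the value of 1 read within 0.01 reads (100% of values), so whole reads were recovered by that division. A separate automatic check did not accept this recovery for EV replicate c, whose step of 0.995698 is close to 1.

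Values were tested as log2(value + 1) in limma 3.58.1, with its trend option and group as the only term. The filter was filterByExpr (edgeR 4.0.16) applied to recovered reads, with Benjamini-Hochberg adjustment over all 14598 genes kept. The 15 alternatives were DESeq2 1.42.0 and the edgeR quasi-likelihood test on recovered reads, 3 scalings, 2 filters, the smaller pseudocount 0.1, the replicate letter as a block, and each library left out in turn. On simulated counts of this comparison limma recovered 28% of 50 genes changed 1.2-fold, 82% of 50 changed 1.5-fold and 96% of 50 changed 4-fold among 14598 genes. Of its calls, 5.66% were false. The simulation changed only 200 genes, whereas 1535 were called in the data, and the adjustment depends on the share that changes. These rates therefore need not hold for the real comparison. Whether the libraries are separate cultures is not stated; the spread behind the p-values is that among these libraries and may be technical. The members, lists and tests were chosen with earlier results of these data known. Named genes were all members, other SLCO genes, up to 4 genes per list (called ones by size, then the most expressed), genes adjoining a member and the 5 nearest to SLCO1B3; NR1H4 is named beyond this for the motif searched. A result on 1 other regulator is not reported here.

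Lengths, coding identity (Biopython 1.88, global alignment) and 50-base windows came from GENCODE release 29 by gene identifier, with coding sequence in place of the protein sequence the design named. Promoter windows are RefSeq's (GRCh38.p14), matched by symbol for 6 of the 8 members; the files use hg19, and no coordinates were converted.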

Additional observations from a re-analysis of the deposited data

How the results depend on the processing

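With no filter beyond 1 read, the count of members called higher was 2, with SLCO1B1 added; since members were chosen by this contrast, nothing is read from it. Among all tested genes, 532 were called higher and 1003 lower (65.3% lower). With libraries scaled to their totals these were 936 and 702 (42.9% lower), and the median of all genes moved from 0.01 to 0.06. That scaling also gave 1 lower regulator, 1 higher and 1 lower prostaglandin gene, and 2 higher and 0 lower neighbours of the cluster. DESeq2 called 1 prostaglandin gene higher and 0 neighbours higher; edgeR called 2 neighbours lower; with no filter beyond 1 read 0 neighbours were called higher. With a replicate block 349 genes were higher, and 0 neighbours were higher and 0 lower. What libraries of the same letter share is not stated in the sources used here. Same-letter libraries had correlations of their deviations between -0.0915 and 0.0444, and not every library correlated best with its own letter. Deviations from means of 3 libraries cannot show whether the letters mark a shared culture or batch.

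Leaving out a library gave 245 to 528 genes higher and 599 to 1051 lower, the fewest without shCHROME replicate c. In the same fits 5 to 9 partners were lower, 0 to 3 regulators higher and 1 to 3 lower, 1 to 2 prostaglandin genes lower, and 0 to 2 neighbours higher and 0 to 1 lower. With Pearson correlation, 1 of the 5 genes closest to SLCO1B3 was shared. Levels and sums by merged exon length were added after seeing the data; the ratio of summed SLCO levels, shCHROME over EV, was 1.15 with it and 0.984 with coding length. Depth limits SLCO1B1, SLCO2A1 and SLCO3A1, which had no more than 16 reads in a library.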

Other observations

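In the authors' deposited table the log2 fold change of SLCO1B3 was 2.12, and that of SLCO1B1 was 0.16. For SLCO1B3 the limma fit gave 3.56, and DESeq2 run here on recovered reads gave 3.63. The deposited values were also smaller in size for the other tested members, such as SLCO3A1 (0.17, against 1.12 in limma). The deposited and limma values come from different methods and are not the same measure. The authors' deposited mean of SLCO1B3 was 103.8 normalised read counts, where the mean of the 6 libraries was 131.7. For SLCO4A1 the authors' deposited mean was 587.9, above the mean of the 6 libraries, 546.3. The sources used here do not say how the deposited means and fold changes were computed.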
